A study of Mus musculus with 8 samples.

Results

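Hnf4a, Foxa1, Foxa2, Foxa3, Onecut1, Onecut2, Prox1, Nr5a2 and Bcl6 encode transcription factors of the hepatocyte. They were chosen by name as a set of core factors, 9 genes of the 55450 in the tables, and each was found once. RNA was measured in 8 mouse livers, 4 controls and 4 knockouts. Controls carried floxed Cebpa without Cre, and knockouts carried the floxed gene with Cre, which removes Cebpa (the factor C/EBP alpha) from hepatocytes. The mice were 10 weeks old and matched for body weight, and both groups were fed ethanol: 5 days of liquid control diet came first, and 4 weeks on liquid food with ethanol at 5% (vol/vol) followed. The sources used here name neither the strain nor the promoter that drives Cre, and livers without ethanol are not analysed here. Whole liver was sequenced, so fewer cells of a type and less RNA per cell cannot be told apart. The titles number the livers, but nothing says that each came from a separate animal, so p-values measure only the spread between these 8 samples, which may be technical.

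Hepatocyte identity is held by a circuit of such factors that bind one another's promoters and the enhancers of liver genes together. HNF4A is a nuclear receptor needed for most hepatocyte functions, and the FOXA proteins are pioneer factors that open chromatin at liver enhancers. ONECUT1 (also called HNF6) and ONECUT2 are cut homeodomain factors of liver and bile duct development, NR5A2 (LRH-1) is a nuclear receptor of bile acid and cholesterol genes, and PROX1 is a homeodomain factor that acts with NR5A2 and HNF4A as a corepressor. BCL6 is a zinc finger repressor that, in liver, opposes STAT5 at genes controlled by growth hormone and represses genes of fatty acid oxidation. C/EBP alpha belongs to the same circuit.

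None of the 9 factors passed edgeR's test between genotypes, and DESeq2 called 1, Bcl6. Bcl6 stood apart, with a higher level in every knockout than in any control, between 4.60 and 32.11 TPM against 2.19 to 3.18 TPM (TPM is a level scaled to transcript length and to the total of the library). The other 8 genes had fold differences below 1.5, all toward lower levels in the knockouts. Onecut1 varied more among livers of a genotype than between genotypes, over a 14.33-fold range within the knockouts. The deleted gene followed the labels, with Cebpa at 149.5 ± 11.8 TPM in controls and 3.97 ± 1.03 TPM in knockouts (SD, n = 4 each, edgeR adjusted p = 4.78e-07).

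Promoter sequences are shown for the upstream windows that hold a motif of one of the 9 factors or their families, of C/EBP or of STAT5, to give the letters behind the counts that follow. RefSeq start sites of the GRCm38.p6 build gave 14 windows of 250 bases upstream for 8 of the 9 genes, all but Onecut2. Each sequence reads 5′ to 3′ on the strand of its gene, the capitals mark the motif match, and a window ends early where an annotated exon of the gene begins.

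Hnf4a, distal promoter, chr2:163506607-163506807, plus strand, ONECUT motif: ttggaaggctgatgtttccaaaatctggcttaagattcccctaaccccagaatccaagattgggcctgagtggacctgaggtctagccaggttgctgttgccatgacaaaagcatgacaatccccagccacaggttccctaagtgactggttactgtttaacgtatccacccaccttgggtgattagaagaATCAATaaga
Foxa2, chr2:148046970-148047219, minus strand, ONECUT motif: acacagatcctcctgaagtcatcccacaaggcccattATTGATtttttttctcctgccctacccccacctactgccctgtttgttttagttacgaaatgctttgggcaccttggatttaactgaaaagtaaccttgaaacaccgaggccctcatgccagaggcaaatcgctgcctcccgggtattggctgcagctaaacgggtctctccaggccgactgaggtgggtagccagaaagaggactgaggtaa
Foxa1, chr12:57546122-57546361, minus strand, FOXA motif: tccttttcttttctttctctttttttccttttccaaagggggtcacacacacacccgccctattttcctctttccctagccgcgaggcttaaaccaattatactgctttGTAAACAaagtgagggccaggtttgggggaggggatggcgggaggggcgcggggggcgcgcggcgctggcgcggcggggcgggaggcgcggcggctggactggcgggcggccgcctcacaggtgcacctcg
Nr5a2, start site inside the gene, chr1:136953631-136953880, minus strand, C/EBP motif: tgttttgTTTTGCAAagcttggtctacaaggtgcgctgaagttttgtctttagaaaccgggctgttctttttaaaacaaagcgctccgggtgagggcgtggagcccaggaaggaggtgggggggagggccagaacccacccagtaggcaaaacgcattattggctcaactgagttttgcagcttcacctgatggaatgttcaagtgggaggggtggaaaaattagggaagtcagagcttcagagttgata
Bcl6, upstream start site, chr16:23988853-23989102, minus strand, STAT5 motif: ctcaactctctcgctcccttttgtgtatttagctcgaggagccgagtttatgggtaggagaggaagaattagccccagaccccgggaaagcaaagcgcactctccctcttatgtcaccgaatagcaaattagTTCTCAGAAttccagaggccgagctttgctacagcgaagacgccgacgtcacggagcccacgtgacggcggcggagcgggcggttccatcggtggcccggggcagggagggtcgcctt
Bcl6, start site inside the gene, chr16:23981284-23981533, minus strand, BCL6 and STAT5 motifs: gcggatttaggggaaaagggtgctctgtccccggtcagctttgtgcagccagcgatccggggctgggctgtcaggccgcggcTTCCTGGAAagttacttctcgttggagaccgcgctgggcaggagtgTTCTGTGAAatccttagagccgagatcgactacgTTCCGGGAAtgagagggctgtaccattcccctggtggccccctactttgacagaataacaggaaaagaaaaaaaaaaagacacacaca

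The ONECUT motif was searched as ATCAAT, the FOXA motif as TGTTTAC, the C/EBP motif as TTGCNNAA, the BCL6 motif as TTCCNNGAA and the STAT5 motif as TTCNNNGAA, each on both strands. Every BCL6 match is also a STAT5 match. The C/EBP motif was in 1 of the 14 windows, that of Nr5a2, against 9.56% of the 32851 windows of all genes, and the ONECUT motif was in 2 against 6.72%. The FOXA motif was in 1 window (3.17% of all windows), the BCL6 motif in 1 (4.06%) and the STAT5 motif in both windows of Bcl6 (7.02%). The motifs CAAAGNCCA for HNF4A, CAAGGTCA for NR5A2 and the palindromic HNF1 motif were in none of the 14 windows and in 1.7%, 1.33% and 0.0609% of all windows. A match describes letters in a window and does not show binding.

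The 8 libraries held between 21048350 and 28148744 expected counts (reads assigned to genes, estimated where shared). Control 2 and knockout 4 stood farthest from their groups, with mean correlations of log2 CPM with the other livers of the group of 0.9648 and 0.9678, against 0.9722 to 0.9769 for the other 6 livers. Hepatocyte markers were abundant in all livers, with a summed level of 63100 to 86420 TPM in controls and 85240 to 90260 TPM in knockouts for 8 genes. Alb carried that sum, and 5 of the 8 had negative log2 fold changes (median -0.18). None passed edgeR's test and 3 had an unadjusted p below 0.05. DESeq2 called 1, the urea cycle gene Cps1, at 532.43 to 743.08 TPM in controls and 377.78 to 518.94 TPM in knockouts (edgeR adjusted p = 0.0763). Of 6 pancreas markers, Cel, Pnlip, Ctrb1, Ptf1a and Pdx1 were at 0 in every liver.

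Over all genes, 2.06% of the 13303 tested passed edgeR's quasi-likelihood test at an adjusted p below 0.05, 0.849% with higher and 1.21% with lower knockout levels, against 0 of the 9 factors. At an unadjusted p below 0.05 there were 3 factors, Foxa3 and Onecut2 with lower and Bcl6 with higher levels in the knockouts, where 18.5% of all tested genes reach that level (8.9% lower and 9.61% higher). DESeq2 called 1 of the 9, Bcl6, where it called 5.54% of the genes to which it gave an adjusted p. The log2 fold changes of the 9 had a median of -0.34, and that of all tested genes was 0.00. These fold changes come from counts scaled by TMM. The direction was negative for 8 genes and positive for Bcl6 under each scaling tried. On log2(TPM + 0.1) values the median of all genes moved to 0.11 and that of the 9 factors was -0.28.

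**Figure D1:**
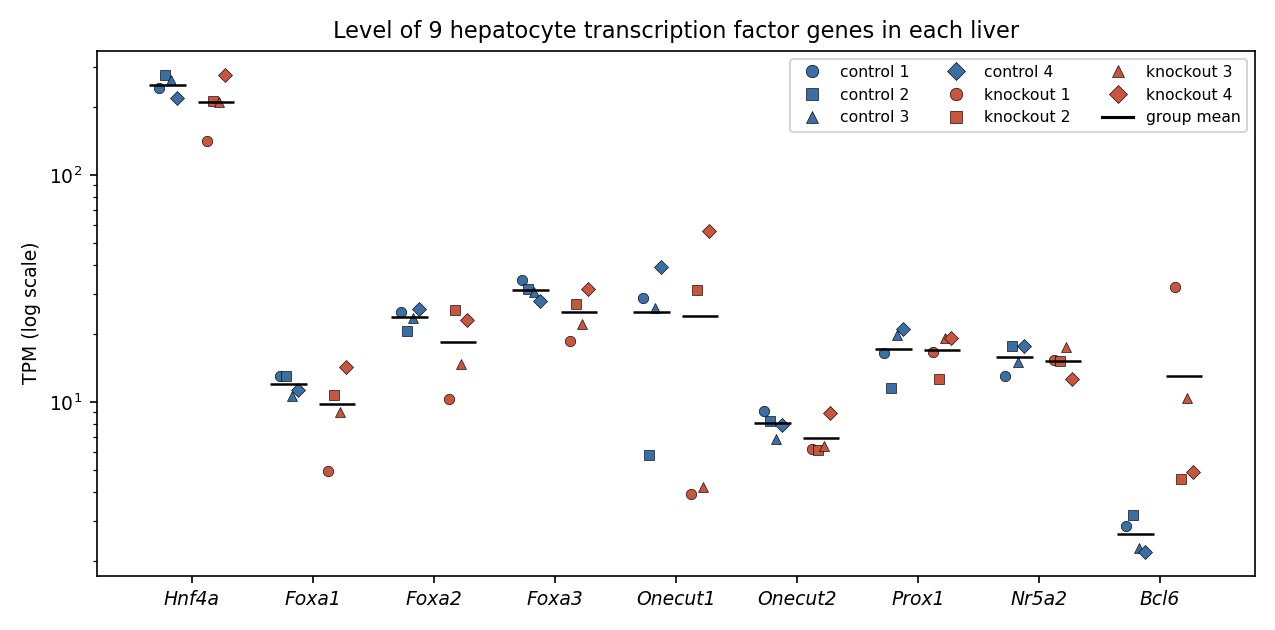
Level of the 9 genes in TPM, on a log scale, in 4 control livers (blue) and 4 knockout livers (red); a marker shape stands for the replicate number and a bar for the group mean. The control and knockout points of Bcl6 do not overlap, those of the other 8 genes do, and Onecut1 splits into high and low livers within each genotype.

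Hnf4a was the most abundant factor. The gene (ENSMUSG00000017950.16) spans 163506808 to 163572910 on chromosome 2 (mm10 coordinates throughout, plus strand). Hnf4a stood at 242.77, 274.71, 261.86 and 218.03 TPM in controls 1 to 4 and 141.76, 211.18, 209.6 and 277.01 TPM in knockouts 1 to 4. Knockouts 1, 2 and 3 were below every control, and knockout 4 was above them in TPM. In TMM-scaled CPM, knockout 4 (844.9) lay within the control range (738.3 to 897.9), and the other knockouts were again below it. The log2 fold change was -0.37 (SE 0.17, 95% interval -0.75 to 0.02, edgeR adjusted p = 0.291). That interval still includes a level 1.5-fold lower in the knockouts. The antisense gene Hnf4aos, which overlaps the span of Hnf4a but none of its exons, was at 4.86 ± 1.0 TPM in controls and 5.68 ± 2.27 TPM in knockouts (SD, n = 4 each, edgeR adjusted p = 0.914).

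Hnf4a is transcribed from a distal and a proximal promoter, the one used early in development and the other in adult hepatocytes. The tables give for each gene a mean transcript length weighted by isoform abundance, which moves when isoform use moves. For Hnf4a it was 4343.7 ± 8.29 bases in controls and 4333.7 ± 4.29 bases in knockouts (SD, n = 4, exact permutation p = 0.0857, adjusted p = 0.5 over 7 genes). All livers lay between 4330.59 and 4352.96 bases, near the 4362 and 4356 bases of the annotated full transcripts from the proximal promoter. The annotated transcript from the distal promoter, shown above, has 431 bases and is a fragment, so use of that promoter is measured poorly by this length.

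Of the FOXA genes, Foxa3 had the highest level and Foxa1 the lowest in every liver. Foxa1 (ENSMUSG00000035451.7, chromosome 12, 57540628 to 57546916, minus strand) was at 13.06, 13.03, 10.62 and 11.26 TPM in controls 1 to 4 and 4.99, 10.74, 9.04 and 14.31 TPM in knockouts 1 to 4. Its log2 fold change was -0.46 (SE 0.24, 95% interval -1.0 to 0.08, edgeR adjusted p = 0.337). In TPM, knockouts 1 and 3 were below every control and knockout 4 was above them. In TMM-scaled CPM, knockout 4 (26.4) lay within the control range (21.82 to 29.74), and knockout 2 (21.8) was barely below it.

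Foxa2 (ENSMUSG00000037025.11, chromosome 2, 148042877 to 148046969, minus strand) was at 25.03, 20.62, 23.37 and 25.75 TPM in controls 1 to 4 and 10.31, 25.43, 14.78 and 23.01 TPM in knockouts 1 to 4. Its log2 fold change was -0.49 (SE 0.24, 95% interval -1.03 to 0.04, edgeR adjusted p = 0.305). Knockouts 1 and 3 were again below every control, and knockouts 2 and 4 were within the control range.

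Foxa3 (ENSMUSG00000040891.6, chromosome 7, 19013284 to 19023538, minus strand) was at 34.47, 31.48, 30.66 and 27.98 TPM in controls 1 to 4 and 18.65, 27.08, 22.07 and 31.44 TPM in knockouts 1 to 4. Its log2 fold change was -0.45 (SE 0.14, 95% interval -0.76 to -0.13, edgeR adjusted p = 0.134). Knockouts 1, 2 and 3 were below every control, and knockout 4 was not. Without knockout 4 the log2 fold change was -0.58 and Foxa3 was called (edgeR adjusted p = 0.0408).

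The balance among the FOXA paralogs was alike in both genotypes within the spread of the livers. Foxa1 made up 17.94% ± 1.52 of the summed FOXA level in controls and 18.05% ± 2.75 in knockouts (SD, n = 4 each, exact permutation p = 0.971). For Foxa2 the shares were 35.48% ± 3.32 and 34.06% ± 4.29 (SD, n = 4, exact permutation p = 0.6), and for Foxa3 they were 46.58% ± 2.39 and 47.89% ± 5.17 (SD, n = 4, exact permutation p = 0.743). The adjusted p = 0.971 for each of the 4 shares tested, that of Onecut1 included. Knockout 1 had the lowest share of Foxa1, 14.7%, and the highest share of Foxa3, 54.93%. The sum of the FOXA levels was 66.83 ± 3.82 TPM in controls and 52.96 ± 16.0 TPM in knockouts (SD, n = 4, exact permutation p = 0.2), with 33.95 TPM in knockout 1 and 45.89 TPM in knockout 3.

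**Figure D2:**
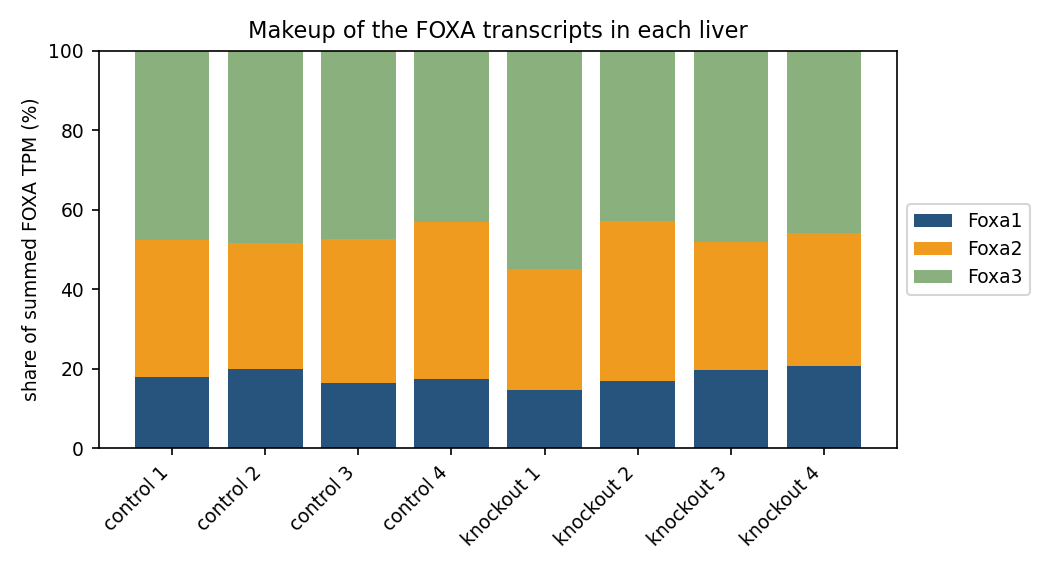
Share of Foxa1, Foxa2 and Foxa3 in their summed TPM, in percent, as stacked bars for each of the 8 livers. Foxa3 holds between 42.81% and 54.93% in every liver, and knockout 1 has the largest Foxa3 share.

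Onecut1 split the livers into high and low within both genotypes. Onecut1 (ENSMUSG00000043013.10, chromosome 9, 74861921 to 74891781, plus strand) was at 28.65, 5.86, 26.01 and 39.29 TPM in controls 1 to 4 and 3.94, 31.26, 4.23 and 56.46 TPM in knockouts 1 to 4. Control 2 and knockouts 1 and 3 were low, between 3.94 and 5.86 TPM, and the other 5 livers were at 26.01 TPM or above. The low livers had 226 to 348 expected counts for the gene, so their levels did not rest on a handful of reads. The log2 fold change was -0.22 with a wide error (SE 0.97, 95% interval -2.54 to 2.10, edgeR adjusted p = 0.931), and its sign depended on single livers. It was 0.07 without control 4, 0.12 without knockout 1 and 0.11 without knockout 3. Gm20649, a noncoding RNA on the same strand whose exons overlap Onecut1, held up to 71.02 expected counts (knockout 4), so reads of both were divided by the authors' estimation.

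Onecut2 (ENSMUSG00000045991.19) did not show that split. It was at 9.12, 8.26, 6.91 and 7.95 TPM in controls 1 to 4 and 6.19, 6.16, 6.43 and 8.92 TPM in knockouts 1 to 4. Knockouts 1 to 3 were below every control and knockout 4 lay within the control range. The log2 fold change was -0.34 (SE 0.14, 95% interval -0.65 to -0.02, edgeR adjusted p = 0.236). Onecut1 made up 69.88% ± 19.2 of the summed ONECUT level in controls and 62.12% ± 26.4 in knockouts (SD, n = 4, exact permutation p = 0.886), with 38.89% to 41.5% in the 3 low livers and 75.85% to 86.36% in the other 5.

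Bile duct cells also express FOXA and ONECUT genes, and 5 of the 8 tested cholangiocyte markers rose in the knockouts, with none lower. They were Spp1, Pkhd1, Epcam, Bicc1 and Krt19. The markers summed to between 31.26 and 71.42 TPM in controls and between 129.1 and 425.7 TPM in knockouts, a sum carried by Spp1, with Krt19 at 0.27 to 0.9 TPM in controls and 1.2 to 1.83 TPM in knockouts. The knockout with the highest sum was knockout 2, while the FOXA genes and Onecut1 were lowest in knockout 1. Each of the 5 calls was lost in 4 to 7 of the 8 fits without 1 liver. The part of these cells in the FOXA and ONECUT levels was not tested.

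Prox1 and Nr5a2 had the closest levels between genotypes, after Onecut1 is set aside for its spread. Prox1 (ENSMUSG00000010175.13, chromosome 1, 190118035 to 190170714, minus strand) was at 16.47, 11.48, 19.71 and 20.98 TPM in controls 1 to 4 and 16.6, 12.64, 19.18 and 19.11 TPM in knockouts 1 to 4. Its log2 fold change was -0.15 (SE 0.21, 95% interval -0.63 to 0.33, edgeR adjusted p = 0.746). The lowest livers were control 2 and knockout 2. The overlapping antisense gene Prox1os was at 6.64 ± 0.785 and 5.92 ± 0.583 TPM (SD, n = 4 each, edgeR adjusted p = 0.428), and if the counting ignored strand its reads could not be told from those of Prox1. Lymphatic endothelium also expresses Prox1. Its 5 markers summed to 7.92 to 11.65 TPM in controls and 12.16 to 19.05 TPM in knockouts, a sum carried mainly by Flt4 and Lyve1. None of the 4 tested passed edgeR's test (1 at an unadjusted p below 0.05, DESeq2 called 0). The edgeR adjusted p was 0.16 for Flt4, 0.272 for Lyve1, 0.804 for Mmrn1 and 0.707 for Ccl21a. Pdpn was at or below 0.3 TPM and Mmrn1 at or below 0.45 TPM in every liver. The sum thus describes Flt4 and Lyve1 more than the list, and is not read as an amount of lymphatic endothelium. The part of these cells in the Prox1 level was not tested.

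Nr5a2 (ENSMUSG00000026398.14, chromosome 1, 136842571 to 136960448, minus strand) was at 13.06, 17.62, 14.96 and 17.7 TPM in controls 1 to 4 and 15.26, 15.2, 17.42 and 12.6 TPM in knockouts 1 to 4. Its log2 fold change was -0.18 (SE 0.12, 95% interval -0.46 to 0.10, edgeR adjusted p = 0.469), the narrowest interval of the 9 genes. It leaves out a difference of 1.5-fold in either direction.

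Bcl6 had the largest difference. The gene (ENSMUSG00000022508.5, chromosome 16, 23965052 to 23988852, minus strand) was at 2.85, 3.18, 2.28 and 2.19 TPM in controls 1 to 4 and at 32.11, 4.6, 10.46 and 4.91 TPM in knockouts 1 to 4. The groups did not overlap, as was the case with a higher knockout level for 5.54% of all tested genes and in either direction for 11.5%. The counts behind these levels were 138 to 175 in controls and 274, 353, 592 and 1815 in knockouts 2, 4, 3 and 1. The log2 fold change was 2.22, or 4.65-fold (SE 0.70, 95% interval 0.58 to 3.86), and did not pass (edgeR adjusted p = 0.16). DESeq2 called it (log2 fold change 2.21, adjusted p = 0.028). Knockout 1 weighed most: in the other 7 livers the log2 fold change of Bcl6 was 1.23 (edgeR adjusted p = 0.139). The weighted transcript length, 3525.0 to 3531.73 bases over the 8 livers, lay near the 3525 bases of the full coding transcript, and its exact permutation p = 0.343.

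Germinal centre B cells and macrophages also express Bcl6. Of 7 B cell markers only Ighm was abundant enough to be tested, and it was at 0.76 to 3.18 TPM in controls and at 34.25, 8.7, 3.13 and 7.2 TPM in knockouts 1 to 4 (edgeR adjusted p = 0.158). Knockout 1 was therefore highest for Ighm as it was for Bcl6. In that liver Pax5 and Cxcr5 were at 0 and Ms4a1, Cd79a and Cd79b at 0.04, 0.05 and 0.12 TPM. These markers were too low to be tested, so no conclusion is drawn from them. None of the 7 macrophage markers passed edgeR's test. They summed to 72.88 to 153.8 TPM in controls and 133.8 to 218.9 TPM in knockouts. DESeq2 called 1 of the 7, and 3 reached an unadjusted p below 0.05. The knockout highest in macrophage markers was knockout 2, which had the lowest Bcl6 level of the knockouts. Stellate cell markers summed to 13.14 to 27.84 and 25.79 to 50.57 TPM, and those of sinusoidal and vascular endothelium to 52.02 to 68.93 and 63.86 to 89.66 TPM. In both of these lists edgeR and DESeq2 called 0 of 5 genes, and 2 had an unadjusted p below 0.05. The part of these cell types in the levels of the factors was not tested.

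**Figure D3:**
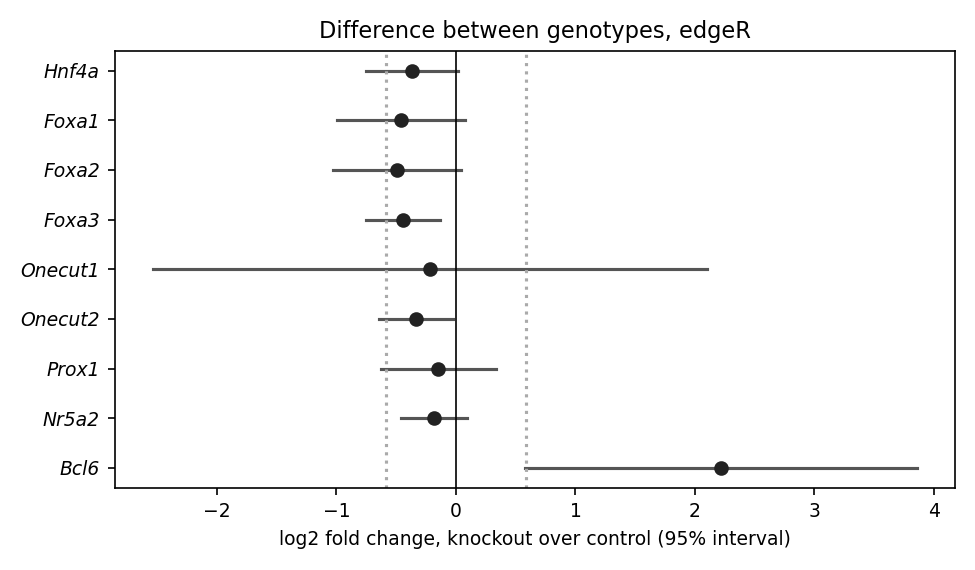
Log2 fold change of knockout over control for the 9 genes from edgeR, with 95% intervals; the dotted lines mark 1.5-fold. The interval of Onecut1 is the widest, from -2.54 to 2.10, and that of Nr5a2 the narrowest.

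In controls the order of levels was Hnf4a (mean 249.3 TPM), Foxa3 (31.15), Onecut1 (24.95), Foxa2 (23.69), Prox1 (17.16), Nr5a2 (15.84), Foxa1 (11.99), Onecut2 (8.06) and Bcl6 (2.62). The 4 livers of one gene lay wholly above those of the next for Hnf4a over Foxa3, Foxa1 over Onecut2 and Onecut2 over Bcl6, and the ranges of all other neighbours overlapped. In knockouts the order was the same but for Bcl6, whose mean of 13.02 TPM put it above Foxa1 (9.77) and Onecut2 (6.92), with overlapping ranges. Bcl6 was above these genes in knockouts 1 and 3 and below them in knockouts 2 and 4. Without knockout 1, a choice made after seeing the data, its mean was 6.66 TPM, below Foxa1 (11.4) and Onecut2 (7.17), and Onecut1 (30.6) came before Foxa3 (26.9). With all 4 knockouts, only Hnf4a stood clear of its neighbour, at a mean of 209.9 TPM against 24.81 TPM for Foxa3. Weighted transcript lengths, tested for the 7 genes with more than one length in the tables, gave adjusted p = 0.5 or above for each.

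Some of the factors varied together over the livers. Of 36 pairs among the 9 genes, 7 had a Pearson correlation of log2 TPM that passed an exact permutation test after adjustment, and no Spearman correlation did (9 had an unadjusted p below 0.05). The 7 were Hnf4a with Foxa1 and Foxa3, Foxa1 with Foxa3 and Onecut2, Foxa2 with Onecut1, and, with negative r, Bcl6 with Foxa2 and Foxa3. No pair with Prox1 or Nr5a2 was among them. The permutations ignored genotype, so a difference between genotypes enters r and p. With each genotype centred on its mean, r was 0.922 and 0.874 for Hnf4a with Foxa1 and Foxa3, and 0.672 for Foxa1 with Onecut2. It was then -0.969 and -0.81 for Bcl6 with Foxa2 and Foxa3. In controls alone r was 0.259, 0.459, 0.889, -0.669 and 0.694 for these pairs, in the same order. That of Foxa3 and Bcl6 was thus positive there. Foxa1 and Foxa3 correlated at r = 0.925 (exact permutation p = 0.00144, adjusted p = 0.0359, n = 8) and rho = 0.857 (exact permutation p = 0.0107, adjusted p = 0.139). Without knockouts 1 and 4, the livers farthest from the median of Foxa1, r was 0.903, and it was 0.674 in controls and 0.963 in knockouts. Foxa2 and Bcl6 ran in opposite directions, with r = -0.934 (exact permutation p = 0.00719, adjusted p = 0.0395, n = 8) and rho = -0.786 (exact permutation p = 0.0279, adjusted p = 0.167). That relation rests on knockouts 1 and 3, since without them r was -0.132, and so does that of Foxa3 and Bcl6, with r = -0.0914 without them. Onecut1 falls into separate high and low livers, so its pair with Foxa2 is counted but no r is given for it. TPM values of a liver share one total, and genes that move with the same livers are not independent.

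Growth hormone acts on liver through STAT5, which raises Cish, a feedback inhibitor, and opposes BCL6. Cish was at 12.03, 8.72, 16.44 and 22.41 TPM in controls 1 to 4 and 0.82, 20.41, 4.95 and 12.03 TPM in knockouts 1 to 4 (log2 fold change -0.91, SE 0.73, edgeR adjusted p = 0.55). Knockouts 1 and 3, which had the lowest Cish levels, were also the knockouts with the highest Bcl6 and the lowest Foxa2 and Onecut1. Control 2, low in Onecut1, had the lowest Cish level of the controls. Cish and these 3 livers were singled out after their values were seen. Socs2, another feedback inhibitor of this pathway, was at 5.39 to 22.45 TPM in controls and 5.53 to 77.93 TPM in knockouts, and control 2 (5.39), knockout 3 (5.53) and knockout 1 (6.66) were the lowest of the 8 livers. Igf1, the main circulating product of the pathway, was at 285.41 to 381.54 TPM in controls and 298.5 to 381.02 TPM in knockouts. Control 2 and knockouts 3 and 1 were the lowest of their genotypes for Igf1, at 285.41, 298.5 and 322.69 TPM, within a narrow range. Stat5b ran the other way and was named after its values were seen. It was highest in control 2 (13.77 TPM), knockout 1 (14.74) and knockout 3 (15.37), against 9.89 to 11.38 TPM in the other livers. Stat5a was highest in knockout 1 (6.9 TPM) and lowest of its genotype in control 2 (4.01) and knockout 3 (5.1). The part of growth hormone signalling in the levels of the factors was not tested.

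**Figure D4:**
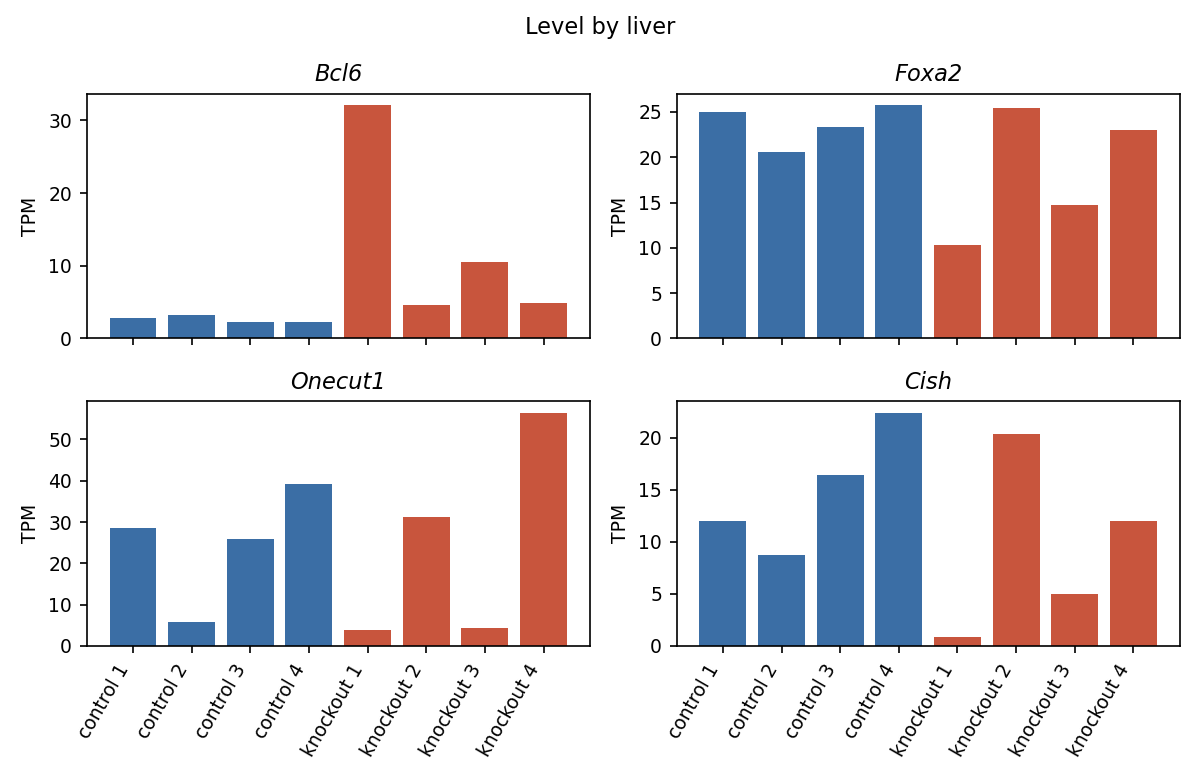
Level in TPM of Bcl6, Foxa2, Onecut1 and Cish in each of the 8 livers, controls in blue and knockouts in red. Knockouts 1 and 3 have the 2 highest Bcl6 bars and low bars for Foxa2, Onecut1 and Cish.

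The genes whose level over the 8 livers was most like that of a factor were sought by Pearson correlation of log2 CPM among the 9006 other genes whose mean reached 5 CPM. For Foxa2 they were Cish (r = 0.963), Rgs3 (0.959) and Xpa (0.924), and for Foxa1 Rgs3 (0.956), Zfp212 (0.937) and Sec23ip (0.937). For Foxa3 they were Mup19 (0.95), Hao1 (0.95) and Serpina3k (0.949). Onecut1 was nearest to Abhd17b, Bag5 and Serpina4-ps1, with no r given because of its separate high and low livers. Bcl6 was nearest to Parp1 (0.969), Pip5k1c (0.963) and Frmd4b (0.962), Hnf4a to Taf13 (0.974), Spin1 (0.97) and Chd1 (0.968), and Onecut2 to Cadps2 (0.972), Bod1 (0.96) and Ncoa2 (0.956). Prox1 was nearest to Gm16573 (0.958), AC117816.1 (0.956) and Srsf11 (0.955), and Nr5a2 to Lims2 (0.967), Slc38a7 (0.939) and Birc3 (0.933). None of these genes passed the test between genotypes. Mup19 still had means of 905 TPM in controls and 17.5 TPM in knockouts (log2 fold change -6.24, edgeR adjusted p = 0.0817). A difference between genotypes thus enters its r with Foxa3, which was 0.665 in controls and 0.985 in knockouts. The values describe 8 livers, with the highest of many correlations chosen, and Mup19 and Serpina3k share reads with close copies.

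Genes around the factors were described by lists, to be read against all tested genes, of which edgeR called 2.06%, DESeq2 5.54% and an unadjusted p below 0.05 took in 18.5%. Of 30 other liver transcription factors, all tested, Nfia fell and none rose, 8 had an unadjusted p below 0.05, DESeq2 called 4, and the median log2 fold change was -0.05. Nfia, a factor of the nuclear factor I family, was at 6.22, 6.21, 7.59 and 8.21 TPM in controls 1 to 4 and 6.15, 4.08, 4.71 and 4.64 TPM in knockouts 1 to 4 (log2 fold change -0.76, SE 0.10, edgeR adjusted p = 0.00818). Every knockout was below every control, and the call held in all 8 fits that left out 1 liver, but not on log2(TPM + 1) values (log2 fold change -0.45, limma adjusted p = 0.128).

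Of 24 genes known as HNF4A targets, 1 fell and none rose. It was Slc10a1, the bile acid importer of hepatocytes, at 379.56 to 510.15 TPM in controls and 255.08 to 355.49 TPM in knockouts (log2 fold change -0.66, SE 0.14, edgeR adjusted p = 0.0493), a call lost in 7 of the 8 fits without 1 liver. The list had 18 negative and 6 positive log2 fold changes and a median of -0.18. An unadjusted p below 0.05 was reached by 9 of the 24, 6 lower and 3 higher, and DESeq2 called 4. Of 10 FOXA targets none passed edgeR's test, with 3 at an unadjusted p below 0.05, 0 called by DESeq2 and a median of 0.09. The transthyretin gene Ttr was at 4873.24 to 6173.67 TPM in controls and 6170.13 to 8591.23 TPM in knockouts (edgeR adjusted p = 0.233), and the glucose-6-phosphatase gene G6pc at 116.42 to 183.25 and 162.44 to 435.64 TPM (edgeR adjusted p = 0.198). Both are also on the list of 7 ONECUT targets, of which none passed edgeR's test, where 4 reached an unadjusted p below 0.05 (DESeq2 calls: 0).

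Of 13 targets of NR5A2 and PROX1 none passed edgeR's test, with 5 at an unadjusted p below 0.05, 3 called by DESeq2 and a median of -0.32. Ccne1, which encodes cyclin E1, was at 1.59 to 3.62 TPM in controls and 0.52 to 1.78 TPM in knockouts (edgeR adjusted p = 0.131). Apom, the carrier of sphingosine 1-phosphate on lipoproteins, was at 134.95 to 304.5 TPM in controls and 109.82 to 134.13 TPM in knockouts (edgeR adjusted p = 0.152).

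Of 11 genes that act upstream of BCL6 or with it as corepressors none passed edgeR's test, with 1 at an unadjusted p below 0.05, 0 called by DESeq2 and a median of 0.01. That gene, Stat5a, was at 4.01 to 5.09 TPM in controls and 5.1 to 6.9 TPM in knockouts (edgeR adjusted p = 0.213). Of 14 BCL6 targets 10 could be tested. None passed edgeR's test, with 3 at an unadjusted p below 0.05, 1 called by DESeq2 and a median of 0.13. Ehhadh, an enzyme of peroxisomal fatty acid oxidation, was at 159.3 to 249.49 TPM in controls and 235.11 to 292.7 TPM in knockouts (edgeR adjusted p = 0.223). The female-biased genes Cyp2b9 and Cyp2a4, named after their values were seen, ran from 0.26 to 59.66 and from 7.88 to 237.55 TPM among controls. Among knockouts they ran from 0.11 to 6.44 and from 1.36 to 28.39 TPM. Their log2 fold changes were -3.48 (SE 1.36, edgeR adjusted p = 0.241) and -2.80 (SE 1.22, edgeR adjusted p = 0.285). Cyp2b9 was the only lower gene among the 3 with an unadjusted p below 0.05. The wide spread among controls limits this comparison.

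**Figure D5:**
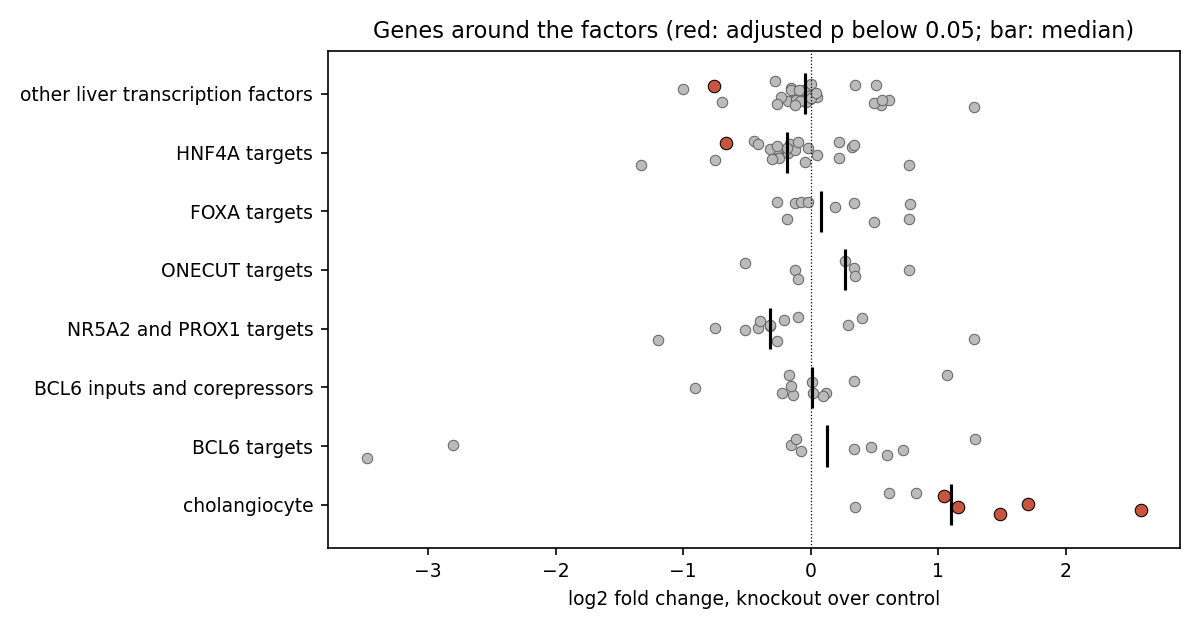
Log2 fold change of knockout over control for the tested genes of 7 lists around the factors and of the cholangiocyte markers; red points have an edgeR adjusted p below 0.05 and a bar marks the median of a list. The red points are Nfia, Slc10a1 and the 5 cholangiocyte markers.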

How the data were processed

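Per the labels, stranded libraries were made from polyadenylated RNA of 8 livers. Trimmomatic 0.36, STAR 2.5.1, RSEM 1.2.22, Picard 1.84 and DESeq2, with the mm10 build, were used by the authors per the submitters' processing notes. Each deposited table holds expected counts from RSEM (reads shared by genes are divided by estimation), the authors' TPM, and transcript lengths in bases. The strand setting of the counting is not given in the sources used here. A joint table repeated them (tolerance 0.005). All 55450 identifiers matched GENCODE M21, which supplied mm10 coordinates.

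Groups and replicate numbers came from the titles. Expected counts were rounded and fitted in edgeR 4.0.16 (R 4.3.3), with filterByExpr (minimum count 10, minimum total 15), TMM, the robust quasi-likelihood test, two-sided, and Benjamini-Hochberg adjustment over 13303 genes at 0.05. The SE came from the fold change and the F statistic. CPM used TMM-scaled libraries, and log2 CPM a prior count of 2. A count was worth 0.0355 to 0.0475 CPM. Shares and lengths were compared with two-sided exact permutation tests over 70 splits, whose smallest p is 0.0286. No 2 livers agreed within sampling noise. The steps were tested on simulated data. DESeq2 1.42.0 and limma 3.58.1 served as alternatives, beside other scalings, filters, a replicate block and livers left out. Figures used matplotlib 3.10.9.

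The members and gene lists were chosen with earlier results of these data known. Named genes were the 9 factors, Cebpa, the called genes of each list (at most 5) or else the 2 with the smallest p, the 3 genes most like each factor, and overlapping genes; others are marked in the text. Some named genes are not reported here.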

Additional observations from a re-analysis of the deposited data

Results flagged for a closer look

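Onecut2 in knockout 4, at 8.92 TPM, lay far from the other 3 knockouts, at 6.16 to 6.43 TPM, and its gap to the nearest of them was 0.902 of the range of the group, past Dixon's 95% limit for 4 samples. It was the 1 such value among 40 groups of 4 livers examined, and chance alone marks about 1 in 20. Knockout 4 also had the deepest library and the highest levels of Hnf4a, Foxa1, Foxa3 and Onecut1 among the knockouts. The part of the library in these values was not tested.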

How the results depend on the processing

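No factor was called by edgeR with all livers, and 8 negative and 1 positive directions held under every alternative with all livers and without control 2 and knockout 4. DESeq2 called 1 factor (Bcl6), and leaving out 1 liver gave 0 to 1 (Foxa3 without knockout 4). The log2 fold change of Onecut1 ran from -1.06 to 0.12 with 1 liver left out, and was positive without control 4 (0.07), knockout 1 (0.12) or knockout 3 (0.11). The cause was not tested.

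The number of called genes, 274, was 837 with DESeq2, 176 with a replicate block, 431 without control 2 and knockout 4, and 108 to 372 with 1 liver left out. The titles give same-numbered livers a shared number and do not say whether they were paired. Correlations of their deviations were 0.267, -0.00315, 0.0167 and -0.0841 for replicates 1 to 4. The replicate block called no factor (Bcl6 log2 fold change 1.75, adjusted p = 0.237), 2 in place of 5 cholangiocyte markers and 1 in place of 0 macrophage markers.

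DESeq2 called 4 of the other liver factors (1 by edgeR), 4 HNF4A targets (1), 3 targets of NR5A2 and PROX1 (0), and 1 BCL6 target, hepatocyte, B cell and macrophage marker each (0). Without control 2 and knockout 4 the calls were 2 other liver factors, 3 HNF4A targets, 2 targets of NR5A2 and PROX1, 1 of the BCL6 inputs, 2 BCL6 targets and 3 cholangiocyte markers. On TPM values limma called 0 other liver factors, 0 HNF4A targets, 1 BCL6 target and 3 (pseudocount 1) or 2 (pseudocount 0.1) cholangiocyte markers. HNF4A targets also had 0 calls with a filter of 1 CPM in 4 livers, limma-voom or no robust estimation. Scaling by library size alone called 1 BCL6 target, and no filter called 1 BCL6 target and 1 hepatocyte marker. With 1 liver left out the calls were 1 to 2 other liver factors, 0 to 1 HNF4A targets, 0 to 3 cholangiocyte markers and 0 in the other lists.

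The difference in share of Foxa1 (0.108 points) was -0.1247 without control 2 and knockout 4 and -0.304 on expected counts, and ran from -0.8136 to 1.224 with 1 liver left out. That of Foxa3 ran from -1.035 to 3.005. Without control 2 and knockout 4 the difference turned for weighted transcript length Foxa1 (39.88 bases), weighted transcript length Foxa2 (8.903) and weighted transcript length Onecut1 (4.223), and on effective length it turned for weighted transcript length Bcl6 (1.732). Single livers left out gave -106.6 to 31.74 (Foxa1), -23.85 to 5.681 (Foxa2) and -62.73 to 13.26 bases (Nr5a2). An exact test of 3 livers against 4 cannot go below 0.0571.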
